A study of Mus musculus with 30 samples.

Results

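Kidney and skeletal muscle of healthy mice were compared across 17782 genes, using the 6 arrays of the 3 wild-type animals that received PBS, out of 30 arrays of 15 mice in the whole series. Members were taken by their labels (genotype WT, treatment PBS, tissue Kidney or Muscle), and the animal number in each title tied the kidney of an animal to its muscle. The animals were 6 weeks old and are called animals 1, 2 and 3 by their labelled replicate numbers. A pair of further groups served to show where the tissue difference moved. These were wild-type mice given sActRIIB-Fc (4 animals), a soluble activin receptor IIB fused to an antibody Fc part that binds activins and related ligands, and mutants given PBS (4 animals). The dose of sActRIIB-Fc was 10 mg/kg, given intraperitoneally 1 time a week for 2 injections. All groups, including mutants given sActRIIB-Fc (4 animals), also entered an alternative fit over all 30 arrays. The mutants, labelled Kif3aKSPCre and Kif3aΔTub, lack the kinesin subunit Kif3a, which builds primary cilia, in kidney tubules. Their Cre recombinase is driven by the promoter of Ksp-cadherin (Cdh16), a tubule gene, so the deletion does not extend to every kidney cell. The labels do not say which muscle was taken, and each sample was a whole piece of tissue, so more cells of a type and more RNA per cell cannot be told apart in any result here.

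Skeletal muscle fibres are long multinucleate cells packed with sarcomeres, the repeating units in which myosin pulls on actin when calcium is released from the sarcoplasmic reticulum. They burn glucose, glycogen and fatty acids and buffer their energy supply with creatine phosphate. Kidney tubules are polarised epithelia that recover solutes and water from the glomerular filtrate, segment by segment, and the proximal tubule also makes glucose, breaks down amino acids and secretes drugs and organic acids. Both tissues are rich in mitochondria, and many enzymes exist as a muscle-type gene and a second gene used in other organs.

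Values are the authors' log2 intensities, on which a difference of 1 is a 2-fold ratio, and differences are written as kidney minus muscle. Genes were called where limma's fit over all genes, paired by animal, gave an adjusted p (Benjamini-Hochberg) under 0.05. Arrays of the same tissue correlated at 0.990 or more across genes and arrays of different tissues at 0.776 to 0.784. Array medians were 0.115 higher in kidney, while the median gene differed by -0.13, so small differences should be read against that shift. A background level was set at the 95th percentile of 70 odorant and pheromone receptor genes, which gave 5.40 in kidney and 5.79 in muscle. In genes at or under this level in both tissues, 5435 in all, the median difference was -0.25, and 2136 of them were called higher in muscle against 262 higher in kidney. A small excess in muscle was therefore present among genes with no signal above background.

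The tissues differed in 11498 genes, 64.7% of those tested. Of these, 5156 genes (29%) were higher in kidney and 6342 (35.7%) higher in muscle. The counts of called genes in each list below are to be read beside these shares. Differences of at least 2-fold were called in 2750 genes higher in kidney (15.5%) and 1834 higher in muscle (10.3%), and of at least 16-fold in 400 and 251. Among the 12347 genes above background in at least 1 tissue the order turned, with 4894 called higher in kidney and 4206 higher in muscle. Of these genes 73.7% were called. The share higher in kidney is larger among them than the 29% of all genes used beside the lists below. The arrays of the tissues did not overlap in 12638 genes (71.1%). In 4215 genes (23.7%) the 95% interval of the difference lay within -0.5 to 0.5. The spread between animals was small, with a median SD of 0.097 in kidney and 0.164 in muscle.

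**Figure D1:**
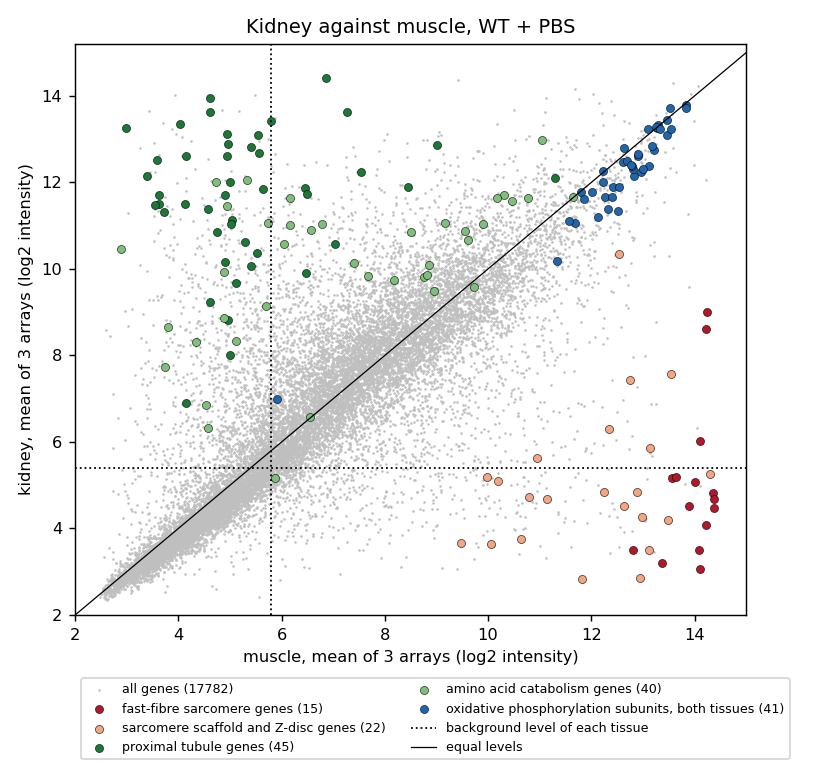
Mean log2 intensity of each gene in muscle (horizontal axis) and kidney (vertical axis), each over 3 arrays of WT + PBS animals, with 5 gene lists coloured, the line of equal levels, and dotted lines at the background level of each tissue (5.40 in kidney, 5.79 in muscle). Fast-fibre genes lie at the lower right and proximal tubule genes at the upper left, while the oxidative phosphorylation subunits lie close to the line of equal levels.

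The largest differences belonged to the fast-fibre contractile apparatus on the muscle side. Myh4, the myosin heavy chain of the fastest (type IIB) fibres, read 14.12, 14.06 and 14.15 in the muscles of animals 1 to 3. It read 3.06, 3.14 and 2.97 in their kidneys, a difference of -11.05 ± 0.12 (limma's moderated SE, n = 3 pairs). Every ± here is this SE, which is drawn towards the spread of all genes and is not that of the 3 pairs alone. Tnnt3, the fast troponin T, followed at -10.59 ± 0.14, then Myh1, the type IIX myosin, at -10.16 ± 0.12 and Tnni2, the fast troponin I, at -10.14 ± 0.14. The others among the 12 largest on this side were Neb (nebulin, the thin-filament ruler), Tnnc2 (fast troponin C), Ckmt2 (sarcomeric mitochondrial creatine kinase), Myl1 and Mylpf (fast myosin light chains), Myot (myotilin of the Z-disc), Ckm (muscle creatine kinase) and Mybpc2 (fast myosin-binding protein C). These ranged from -10.09 for Neb to -9.37 for Mybpc2. On the kidney side the 12 largest were led by Cltrn (collectrin, a partner of amino acid transporters in the brush border) at 10.28 ± 0.15, Umod (uromodulin, the main urinary protein) at 10.22 ± 0.13 and Klk1 (kidney kallikrein) at 10.08 ± 0.14. After them came Ugt2b38, Sult1d1 and Ugt3a2 (conjugating enzymes), Slc12a1 (the cotransporter blocked by loop diuretics), Slc27a2 (a fatty acid transporter), Keg1, Cyp2j5 (an arachidonic acid epoxygenase), Miox (inositol oxygenase) and Fut9 (a fucosyltransferase), down to 9.00. The dimmer tissue lay at or under background in all 24, so these differences are limited by that level and are not ratios of RNA. The largest adjusted p of the 24 was 3.02e-10 (limma).

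Of the 15 fast-fibre genes measured, 15 were higher in muscle and their median difference was -9.37, beside a background of 35.7% of genes and a median of -0.13. The kidney arrays were at or under background for 12 of them. The exceptions were Atp2a1, the fast calcium pump (kidney 6.07, 6.08 and 5.94), Tpm1, a tropomyosin also used in smooth muscle, and Pvalb. Pvalb encodes parvalbumin, a calcium buffer of fast fibres that also marks cells of the distal convoluted tubule. It read 14.26, 14.26 and 14.24 in muscle and 8.74, 9.16 and 9.11 in kidney, so it was well above background in both tissues and differed by -5.25 ± 0.13.

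Sarcomere scaffold and Z-disc genes were higher in muscle in 22 of 22, with a median of -6.67, and excitation-contraction coupling genes in 15 of 15, with a median of -6.49. Acta1, skeletal alpha-actin, read 14.23, 14.28 and 14.35 in muscle and 5.45, 5.07 and 5.24 in kidney. Ttn, the giant spring titin, differed by -9.28 ± 0.15, Des, the intermediate filament desmin, by -5.32 ± 0.11, and Flnc, filamin C, by -5.09 ± 0.12. Ryr1, the calcium release channel, differed by -8.98 ± 0.14, and Cacna1s, the voltage sensor that opens it, by -7.42 ± 0.16. Trdn (triadin) and Cacng1, further parts of that junction, differed by -7.67 ± 0.15 and -7.50 ± 0.11. Slow-fibre genes were higher in muscle in 12 of 14, with a median of -5.23. Mb, the oxygen store myoglobin, read 13.83, 13.88 and 13.75 in muscle, and Myl2, the slow myosin light chain, 12.61, 12.49 and 12.78, while both stayed at or under background in kidney. Signal of both fibre lists was present in the muscle of every animal.

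The other slow-list genes, Tpm3 and Atp2a2, were higher in kidney by 1.59 ± 0.13 and 2.95 ± 0.14, and both calls depended on the probe set. Tpm3 encodes a slow tropomyosin and, from other promoters and exons, cytoskeletal forms made in most cells. Its 5 probe sets ran from -7.25 to 1.59, the most variable of them giving -7.25 and the mean of all -1.89. Atp2a2 encodes the slow-fibre and the housekeeping calcium pump, and its 3 probe sets ran from -1.68 to 2.95, with a mean of -0.07 (adjusted p = 0.73, limma). In all, 17 of the named and called genes had probe sets on both sides of 0. They include Klk1 (-1.18 to 10.49), Mbp (-7.02 to 0.63) and Slc4a1 (-0.40 to 5.14).

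The regulators of muscle identity stood on the same side. All 15 myogenic transcription factors and satellite cell genes measured were higher in muscle, with a median of -3.16, and kidney was at or under background for 10 of them. Myf6, the myogenic factor of mature fibres, read 10.65, 10.70 and 10.68 in muscle and 3.70, 4.50 and 3.75 in kidney, a difference of -6.69 ± 0.16. Vgll2, a cofactor of TEAD factors, differed by -6.03 ± 0.15, Tbx15, a factor of glycolytic fibres, by -5.75 ± 0.13, and Eya4, a transcriptional coactivator, by -5.54 ± 0.11. Dystrophin complex genes were higher in muscle in 11 of 11 (median -3.33), led by Cav3 (muscle caveolin, -6.33 ± 0.14), Capn3 (muscle calpain, -5.25 ± 0.13), Sgca (alpha-sarcoglycan, -5.18 ± 0.15) and Sspn (sarcospan, -4.91 ± 0.11). Of 12 genes of the neuromuscular junction and of denervation, 9 were higher in muscle and 1 in kidney (median -2.08). Chrna1 and Chrnb1, acetylcholine receptor subunits, differed by -3.75 ± 0.13 and -3.27 ± 0.13, and Ache, which breaks acetylcholine down, by -3.09 ± 0.15. The gene higher in kidney was Lrp4, the agrin receptor, at 6.76, 6.95 and 6.89 in kidney and 5.80, 5.67 and 6.13 in muscle (1.00 ± 0.13).

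The promoters of these genes are shown because motifs of muscle and kidney transcription factors were more common among the genes with the largest differences. Sequences are from RefSeq for GRCm38.p6, which held a promoter for 14176 of the 17782 genes (79.7%), and the 250 bases before the start were searched on both strands. TATAAA was present in 17.4% of the genes at least 16-fold higher in muscle, 13.4% of those at least 16-fold higher in kidney and 9.0% of all genes tested. The E-box letters CAGCTG, bound by myogenic factors, were in 27.2%, 10.9% and 12.5%, and the wider E-box CANNTG, which includes them, in 74.9%, 70.5% and 60.8%. The MEF2 box, an A/T-rich site that can overlap a TATA box, was in 12.3%, 0.3% and 1.3%, and the CArG box, bound by serum response factor, in 4.1%, 1.6% and 1.2%. CATTCC, the site of TEAD factors, was in 19.5%, 13.7% and 11.4%. GTTAAT, part of the site of HNF1, was in 4.1%, 16.1% and 4.7%, and CAAAGT, part of the HNF4 site, in 12.8%, 17.1% and 11.3%. Base composition moved with these groups, with a median GC content of 54.4%, 53.6% and 58.0% and a median of 5, 5 and 13 CpG, and its part in the shares was not tested. A match is a description of letters and not a shown binding site.

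Below are the 150 bases before the start of 3 muscle genes, on each gene's own strand from 5′ to 3′, chosen to show these motifs. Myh4 lies at chr11:67237662-67237811 (plus strand) and has in capitals, in order, a CArG box, the narrower E-box and the TATA letters named above. Acta1 lies at chr8:123894776-123894925 (minus strand) and has a CArG box, the TEAD site and the TATA letters. Pgam2, the muscle phosphoglycerate mutase, lies at chr11:5803797-5803946 (minus strand) and has the narrower E-box and a MEF2 box.
Myh4: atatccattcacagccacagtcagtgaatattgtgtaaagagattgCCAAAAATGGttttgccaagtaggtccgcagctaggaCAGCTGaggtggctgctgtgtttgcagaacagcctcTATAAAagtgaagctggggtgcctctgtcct
Acta1: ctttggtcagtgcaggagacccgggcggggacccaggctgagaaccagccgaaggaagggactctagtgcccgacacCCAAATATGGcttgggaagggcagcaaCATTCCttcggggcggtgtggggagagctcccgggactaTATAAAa
Pgam2: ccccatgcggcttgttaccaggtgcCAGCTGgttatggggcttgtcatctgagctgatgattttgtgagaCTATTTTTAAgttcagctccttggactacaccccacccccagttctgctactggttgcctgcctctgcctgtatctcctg

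For kidney, the same stretch is shown for 3 proximal tubule genes with GTTAAT, which reads ATTAAC where it lies on the other strand. Cltrn lies at chrX:164090037-164090186 (plus strand) and Slc34a1, the sodium-phosphate cotransporter of the brush border, at chr13:55399498-55399647 (plus strand), each with 1 copy on either strand. Miox lies at chr15:89334323-89334472 (plus strand) and has ATTAAC and, closer to the start, TATAAA.
Cltrn: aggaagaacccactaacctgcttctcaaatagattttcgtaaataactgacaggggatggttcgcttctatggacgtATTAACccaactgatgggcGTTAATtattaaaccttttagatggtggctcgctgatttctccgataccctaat
Slc34a1: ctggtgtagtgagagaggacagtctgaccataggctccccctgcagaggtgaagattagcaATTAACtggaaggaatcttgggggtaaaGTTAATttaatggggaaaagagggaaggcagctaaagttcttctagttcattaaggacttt
Miox: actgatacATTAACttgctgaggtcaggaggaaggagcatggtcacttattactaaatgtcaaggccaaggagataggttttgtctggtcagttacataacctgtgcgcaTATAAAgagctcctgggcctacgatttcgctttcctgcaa

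Every segment of the nephron was represented in kidney. All 45 proximal tubule genes measured were higher in kidney, 44 of them at least 2-fold, with a median of 6.80, beside 29% of all genes. Muscle was at or under background for 34 of the 45. Slc34a1 read 13.13, 13.13 and 13.09 in kidney and 5.09, 4.98 and 4.75 in muscle, a difference of 8.18 ± 0.12. Lrp2 (megalin, the endocytic receptor for filtered proteins) differed by 8.93 ± 0.11, Slc27a2 by 9.33 ± 0.14, Slc5a12 (a lactate transporter) by 7.87 ± 0.12 and Slc2a2, through which glucose leaves the cell, by 7.93 ± 0.20. The smallest difference of the list was that of Aqp1, a water channel also made by endothelium, at 0.82.

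In the thick ascending limb and distal tubule list, 19 of 22 genes were higher in kidney (median 3.94). Umod read 13.59, 13.75 and 13.60 in kidney and 3.42, 3.74 and 3.11 in muscle, and Slc12a1 read 12.90, 12.97 and 12.83 against 3.18, 3.54 and 3.86. Calb1, the calcium buffer of the distal tubule, differed by 8.99 ± 0.16, and Cldn8, a tight-junction claudin, by 6.76 ± 0.14. The genes of this list higher in muscle were Pvalb and Nos1 (neuronal nitric oxide synthase, which marks the macula densa and is also bound to the muscle membrane), the latter at -1.95 ± 0.15. Of 26 collecting duct genes, 25 were higher in kidney (median 3.50). Hsd11b2, which shields the mineralocorticoid receptor from glucocorticoids, differed by 5.10 ± 0.11. The water channels split, with Aqp3 5.02 ± 0.15 and Aqp2 2.88 ± 0.13 higher in kidney and Aqp4, which muscle fibres also carry, higher in muscle at -1.68 ± 0.21. Aqp2 read 6.93, 6.94 and 6.82 in muscle, above the background level. Podocyte and glomerular genes were mixed, with 12 of 18 higher in kidney (66.7%) and 4 higher in muscle (22.2%). Over all genes these shares were 29% and 35.7%. The median of the list was 1.24. Col4a3 and Col4a4, chains of glomerular basement membrane collagen, differed by 5.33 ± 0.19 and 4.30 ± 0.11. Those higher in muscle were Cdkn1c, a cell-cycle inhibitor, at -2.42 ± 0.14, Clic5 at -1.33 ± 0.12, Nes (nestin) at -0.84 ± 0.12 and Plce1 at -0.45 ± 0.11.

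Epithelial adhesion and polarity genes were higher in kidney in 24 of 25 (median 3.52), led by Cldn2, the leaky claudin of the proximal tubule (7.99 ± 0.18). Cdh16, whose promoter drives the Cre of the mutants, read 12.42, 12.38 and 12.48 in kidney and 6.31, 5.89 and 6.13 in muscle (6.32 ± 0.12). Cdh1, E-cadherin, differed by 6.03 ± 0.14. Transcription factors of the nephron were higher in kidney in 24 of 28 and higher in muscle in 2, with a median of 2.31. Pou3f3, needed for the loop of Henle, differed by 5.92 ± 0.12, Hnf4a, a proximal tubule regulator, by 5.34 ± 0.15 (its 4 probe sets ran from 1.29 to 8.04), and Nr1h4, the bile acid receptor, by 5.33 ± 0.16. Those higher in muscle were Sim2 (-1.18 ± 0.13) and the clock factor Bhlhe41 (-0.79 ± 0.15). Hormone and blood pressure genes were higher in kidney in 11 of 16 and in muscle in 3 (median 1.34). Kl, the ageing-linked co-receptor klotho, read 11.65, 11.66 and 11.69 in kidney and 4.78, 4.84 and 4.78 in muscle. Pth1r, the parathyroid hormone receptor, differed by 5.77 ± 0.13 and Vdr, the vitamin D receptor, by 5.22 ± 0.17. Of 36 organic solute and drug handling genes, 34 were higher in kidney (median 5.17), and the 2 higher in muscle were Aldh1a1 (-1.23 ± 0.23), which makes retinoic acid, and the drug pump Abcb1a (-1.19 ± 0.16).

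**Figure D2:**
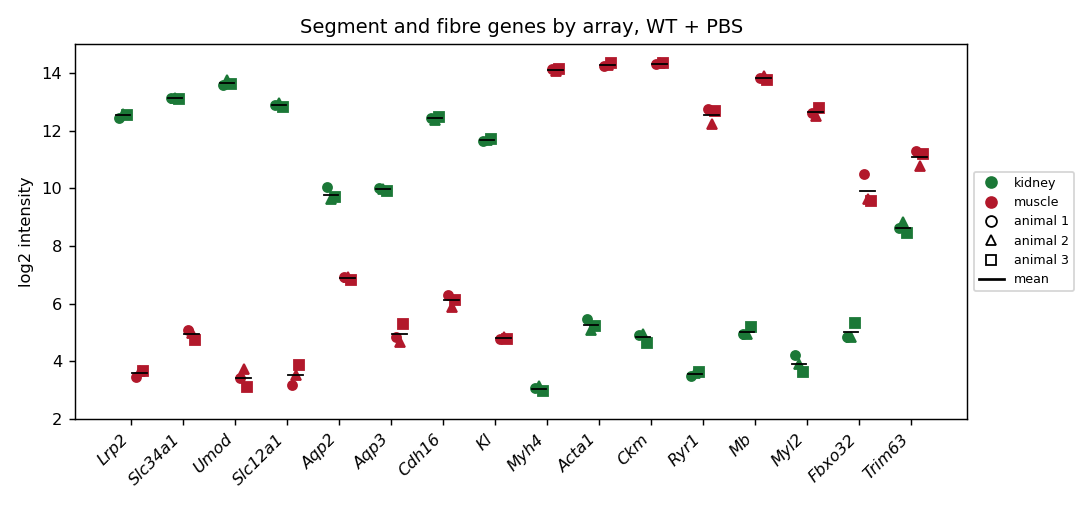
Log2 intensity of 16 genes in each of the 3 kidney and 3 muscle arrays of WT + PBS animals, with symbols for the animals and a line at each mean. Kidney lies above muscle for the nephron genes on the left (Umod 13.59 to 13.75 in kidney, 3.11 to 3.74 in muscle) and muscle above kidney for the fibre and ligase genes on the right, with no overlap in any of the 16.

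Many enzymes and transporters had a muscle-type gene higher in muscle and a related gene higher in kidney. Of 28 pairs written from textbook knowledge of which gene is the muscle type, both genes were measured in 22. Earlier results of these data were known when they were written, so their counts are only a description. The muscle-type gene was higher in muscle in 22 of 22 pairs, which is how the pairs were written. The other gene was higher in kidney in 17 of 22 and in muscle in 1, beside 29% and 35.7% of all genes. The pair with both higher in muscle was the calpains Capn3 and Capn1 (-1.28 ± 0.11). In creatine kinase, Ckm read 14.30, 14.34 and 14.33 in muscle and 4.90, 4.96 and 4.64 in kidney, while Ckb, its cytosolic relative, read 9.84, 9.45 and 9.80 in kidney and 7.77, 8.13 and 8.02 in muscle. The mitochondrial pair did likewise, with Ckmt2 at -9.76 ± 0.15 and Ckmt1 at 3.23 ± 0.15. Fructose bisphosphatase was split between Fbp2 (-1.85 ± 0.12) and Fbp1 (8.83 ± 0.14), glucose transport between the insulin-sensitive Slc2a4 (-3.37 ± 0.11) and Slc2a2, and lactate dehydrogenase between Ldha (-1.39 ± 0.12) and Ldhb (1.81 ± 0.11). The nucleotide carrier of mitochondria, which swaps ADP for ATP, was split between Slc25a4 (-1.59 ± 0.11) and Slc25a5 (3.17 ± 0.13). In 4 pairs the second gene was not called, namely Cox7a2 (0.08 ± 0.11), Atp2a3 (0.20 ± 0.12), Phkg2 (0.22 ± 0.12) and Fabp1 (0.27 ± 0.17), the last at background in both tissues.

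**Figure D3:**
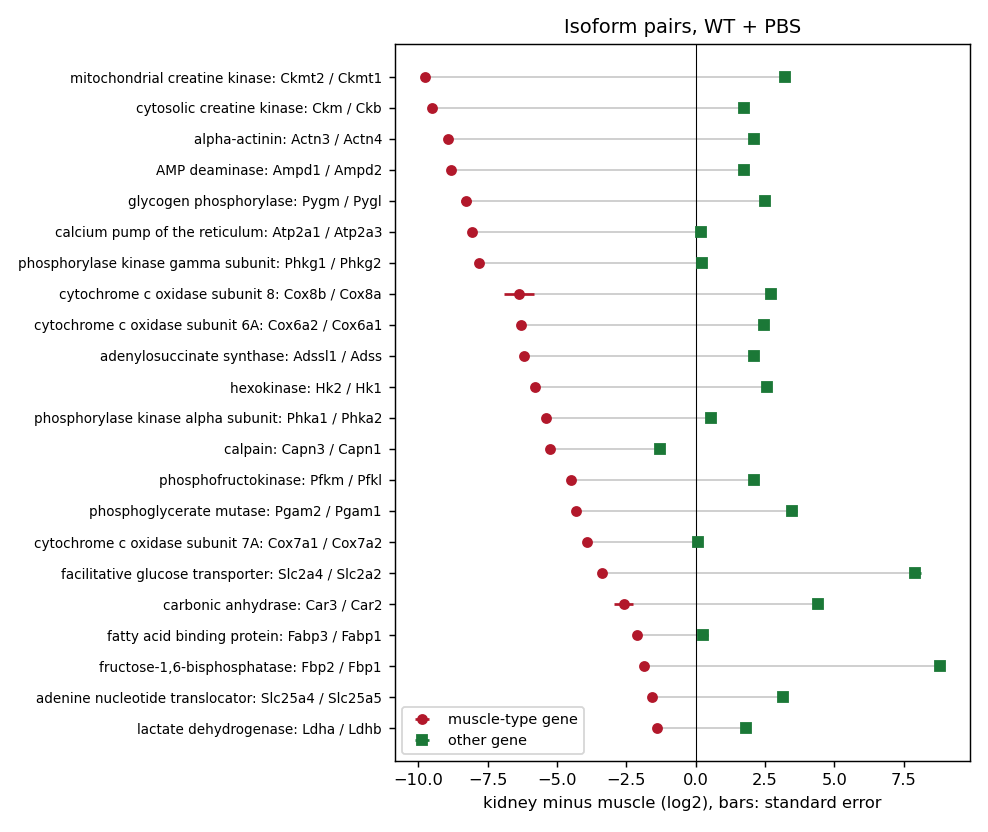
Kidney minus muscle difference (log2) with limma's moderated standard error for the 22 isoform pairs. The muscle-type gene is a circle and the other gene a square. The circles lie at or below -1.39 in every pair, and the squares lie above 0 in all pairs but that of the calpains (Capn1 -1.28), 17 of them called higher in kidney.

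Of 33 glycogen and glycolysis genes, 21 were higher in muscle (63.6%) and 10 in kidney (30.3%), beside 35.7% and 29% of all genes. Their median was -1.25. Pygm, the muscle glycogen phosphorylase, read 13.63, 13.44 and 13.47 in muscle and 4.75, 5.28 and 5.63 in kidney, and Pygl, its liver-type relative, 8.96, 8.52 and 8.68 in kidney and 6.18, 5.90 and 6.54 in muscle. Eno3, the muscle enolase, differed by -7.72 ± 0.12, and Pgam2 by -4.32 ± 0.11 against 3.49 ± 0.15 for Pgam1. Hexokinase was split between Hk2 (-5.80 ± 0.15) and Hk1 (2.59 ± 0.11). Of 8 gluconeogenesis genes, 6 were higher in kidney and Fbp2 was higher in muscle (median 1.61). G6pc, which releases free glucose, read 12.03, 11.94 and 11.46 in kidney and 4.12, 3.81 and 4.50 in muscle, and Pck1, which makes phosphoenolpyruvate, differed by 5.97 ± 0.14. Creatine synthesis was divided by step. Gatm, which makes the precursor guanidinoacetate, was higher in kidney by 5.34 ± 0.16, and Gamt, which methylates it, was higher in muscle, at -1.36.

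The core respiratory chain differed far less. Of 41 oxidative phosphorylation subunits outside the tissue isoforms, 22 were higher in muscle (53.7%) and 1 in kidney (2.4%). Over all genes these shares were 35.7% and 29%. The median of the list was -0.31, and only 2 and 1 of its members were at least 2-fold apart in these directions. Ndufs7 and Ndufs4 of complex I differed by -1.16 ± 0.11 and -1.14 ± 0.11, while Sdha of complex II differed by 0.03 and Atp5b of the ATP synthase by 0.20, neither called. The gene higher in kidney was Cox7c (1.08 ± 0.12). Of 9 tissue isoforms of cytochrome c oxidase, 5 were higher in muscle (55.6%) and 2 in kidney (22.2%), beside the same shares of all genes. Their median, -0.36, was close to that of the core subunits. Their range was wider, at -6.37 to 2.72 against -1.16 to 1.08. Cox6a2 read 13.05, 13.24 and 13.14 in muscle and 6.41, 7.12 and 7.07 in kidney, while Cox6a1 read 14.17, 14.16 and 14.16 in kidney and 11.39, 11.86 and 11.79 in muscle. Cox8a differed by 2.72 ± 0.15 and Cox7a1 by -3.90 ± 0.14, and Cox8b is described with the adipose genes below. Of 22 citric acid cycle genes, 12 were higher in muscle (54.5%) and 5 in kidney (22.7%), beside 35.7% and 29% of all genes. Their median was -0.42. Cs, citrate synthase, differed by -1.23 ± 0.11 and Idh3a by -1.31 ± 0.12, whereas the cytosolic Idh1 and Aco1 were higher in kidney by 2.85 ± 0.13 and 2.96 ± 0.13. Pyruvate dehydrogenase kinases were split, with Pdk4 at -3.64 ± 0.18 and Pdk3 at 3.30 ± 0.11.

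Of 22 mitochondrial fatty acid oxidation genes, 9 were higher in kidney (40.9%) and 7 in muscle (31.8%), with a median of 0.21. Over all genes these shares were 29% and 35.7%, but among genes above background the share higher in kidney was larger. The list is therefore not read as leaning to kidney. Cpt1a, the gate for fatty acids into mitochondria, was higher in kidney by 3.97 ± 0.12, and Acadm, an acyl-CoA dehydrogenase, by 1.41 ± 0.12. Ucp3, an uncoupling protein of muscle, and Fabp3, a fatty acid carrier, differed by -2.94 ± 0.19 and -2.10 ± 0.11. Peroxisome genes leaned clearly to kidney, with 24 of 28 higher there and 2 in muscle (median 1.39). Hao2, a hydroxyacid oxidase, read 12.32, 12.13 and 12.25 in kidney and 3.58, 3.28 and 3.48 in muscle, and Acaa1b, a thiolase, read 11.90, 11.93 and 12.10 against 4.04, 3.98 and 3.91. Dao, which oxidises D-amino acids, differed by 5.95 ± 0.16 and Ehhadh by 5.81 ± 0.12. Of 40 amino acid catabolism genes, 36 were higher in kidney and 1 in muscle (median 2.24). Bhmt2, a methyltransferase of methionine metabolism, differed by 7.59 ± 0.12, Aadat, which transaminates aminoadipate and kynurenine, by 7.28 ± 0.12, Hgd, of tyrosine breakdown, by 6.73 ± 0.15 and Cth, which makes cysteine, by 6.51 ± 0.13. The gene higher in muscle was Tat, tyrosine aminotransferase (-0.71 ± 0.11), which read 5.92, 5.75 and 5.98 in muscle, close to background.

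Of 9 sodium pump subunits measured here, 4 were higher in kidney (44.4%) and 5 in muscle (55.6%), beside 29% and 35.7% of all genes. Fxyd2, the pump's gamma subunit, differed by 7.61 ± 0.13 and Atp1b1 by 2.16 ± 0.12, while Fxyd1 (phospholemman) differed by -4.97 ± 0.17 and Atp1b2 by -3.74 ± 0.12. Of 17 glucose and lactate transporters, 9 were higher in kidney (52.9%) and 5 in muscle (29.4%), beside the same shares of all genes (median 1.70). Slc16a3, which exports lactate from glycolytic fibres, read 8.68, 8.70 and 8.88 in muscle and 4.60, 4.58 and 4.64 in kidney, and Slc5a8, which recovers lactate from the filtrate, read 10.65, 10.93 and 11.15 in kidney and 3.75, 3.56 and 3.59 in muscle.

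**Figure D4:**
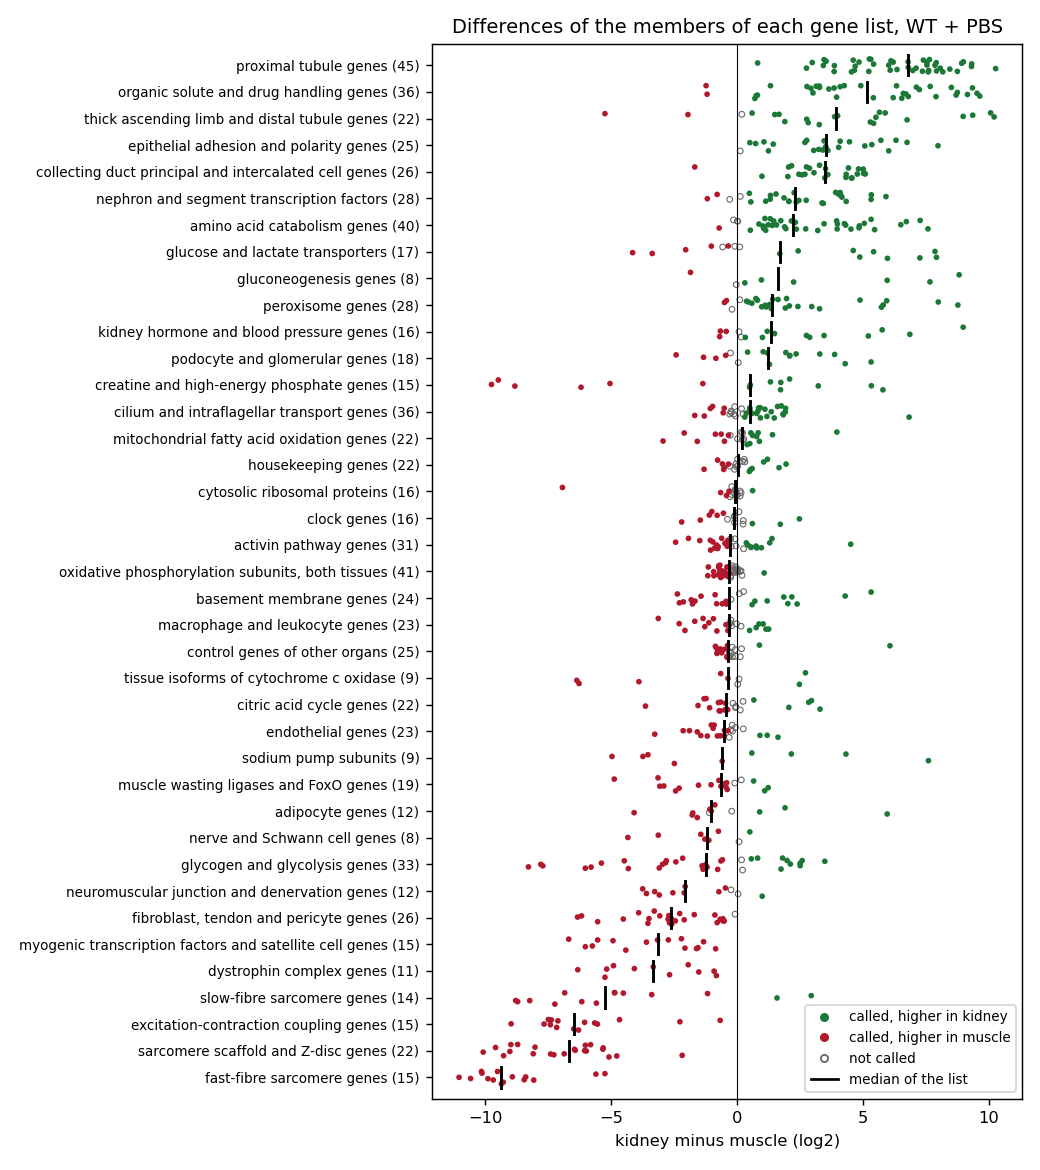
Kidney minus muscle difference (log2) of every measured member of the gene lists with at least 8 members, sorted by the median of the list (black bar), with called genes filled and genes not called open. Medians run from -9.37 for the fast-fibre genes to 6.80 for the proximal tubule genes, and the core oxidative phosphorylation, housekeeping and ribosomal lists lie near 0.

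The series was built around the activin pathway, in which activins bind type II receptors (Acvr2a, Acvr2b), signal through type I receptors and SMAD2 and SMAD3, and are held back by follistatins. Of 31 pathway genes measured, 15 were higher in muscle (48.4%) and 11 in kidney (35.5%), beside 35.7% and 29% of all genes, with a median of -0.26. Among ligands, Inhba (activin A subunit) read 6.44, 6.49 and 6.52 in muscle and 5.22, 5.46 and 5.59 in kidney (-1.06 ± 0.12), and Inha (the inhibin subunit) differed by -2.44 ± 0.19. Inhbb differed by -0.75 ± 0.16, but the mean of its 2 probe sets gave -0.12 (adjusted p = 0.449, limma). The receptors Acvr2a and Acvr2b were higher in muscle by -0.89 ± 0.14 and -1.05 ± 0.16. Acvr2b, the receptor used for the trap, read 8.01, 7.34 and 7.82 in muscle and 6.50, 6.61 and 6.90 in kidney. The type I receptor Acvr1b was not called (-0.23 ± 0.12, adjusted p = 0.115, limma) but was after quantile normalization (-0.39, adjusted p = 0.0194), and Smad3 was higher in muscle at -1.48 ± 0.12. Of the inhibitors, Fstl1 differed by -1.93 ± 0.13, Fstl3 was not called (0.26 ± 0.14, adjusted p = 0.125) and Fst was called at -0.37 ± 0.13 (adjusted p = 0.0321). The Fst call was lost without animal 1 (adjusted p = 0.219) or animal 3 (0.113) and without the block on animals (0.142). On the bone morphogenetic side, Bmp4, Bmp6 and the BMP target Id2 were higher in kidney by 1.39 ± 0.12, 1.30 ± 0.12 and 4.52 ± 0.14.

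Ubiquitin ligases of muscle wasting were higher in healthy muscle than in kidney. Fbxo32 (atrogin-1) read 10.51, 9.62 and 9.56 in muscle and 4.86, 4.85 and 5.32 in kidney, a difference of -4.88 ± 0.22. Trim63 (MuRF1) read 11.30, 10.76 and 11.17 in muscle and 8.61, 8.84 and 8.45 in kidney (-2.44 ± 0.17), so only Fbxo32 was at background in kidney. Across 19 wasting and FoxO genes, 14 were higher in muscle (73.7%) and 3 in kidney (15.8%), beside 35.7% and 29% of all genes. Their median was -0.64. The ones higher in kidney were Fbxo21 (1.24 ± 0.15) and the FoxO factors Foxo3 (1.10 ± 0.19) and Foxo1 (0.66 ± 0.12), although the 3 probe sets of Foxo3 ran from -0.13 to 1.10. Cilium genes leaned to kidney, with 22 of 36 higher there (61.1%) and 6 in muscle (16.7%), beside 29% and 35.7% of all genes. Their median was 0.51. Pkhd1, the fibrocystin gene of recessive polycystic disease, read 9.96, 10.16 and 10.16 in kidney and 3.47, 3.03 and 3.25 in muscle. Bbs2 and Bbs1, of the ciliary cargo coat, differed by 1.93 ± 0.13 and 1.84 ± 0.17, whereas Ift27 (-1.68 ± 0.11) and Kif3c (-1.30 ± 0.12) were higher in muscle. Kif3a itself read 7.76, 7.89 and 7.84 in kidney and 7.12, 7.08 and 7.76 in muscle (0.51 ± 0.15, adjusted p = 0.0154, limma). That call was lost after quantile normalization (adjusted p = 0.092) and without animal 2 (0.108).

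Connective tissue genes were higher in muscle. Of 26 fibroblast, tendon and pericyte genes, 25 were higher there and 0 in kidney (median -2.61). The tendon genes Kera (keratocan), Tnmd (tenomodulin) and Thbs4 differed by -6.34 ± 0.14, -6.18 ± 0.12 and -5.54 ± 0.14, and Col1a1 by -4.52 ± 0.13. Tnmd read 10.52, 10.43 and 10.67 in the muscle arrays, so tendon signal was present in all 3 muscle samples, and its part in the other muscle results was not tested. Basement membrane genes were split by chain, with 12 of 24 higher in muscle and 9 in kidney. The laminin chain Lama2 and its receptor subunit Itga7, both of the fibre surface, differed by -2.13 ± 0.11 and -2.37 ± 0.11, while Lama1 and Col4a5 were higher in kidney by 2.39 ± 0.11 and 2.18 ± 0.13. Of 23 endothelial genes, 14 were higher in muscle (60.9%) and 3 in kidney (13.0%), beside 35.7% and 29% of all genes (median -0.51). Vwf, the clotting factor carrier, and Cd34 differed by -3.27 ± 0.12 and -2.14 ± 0.13, whereas Plvap, of fenestrated vessels, and Emcn were higher in kidney by 1.63 ± 0.16 and 0.91 ± 0.12. Of 23 macrophage and leukocyte genes, 11 were higher in muscle (47.8%) and 6 in kidney (26.1%), beside 35.7% and 29% of all genes, with a median of -0.33. The resident macrophage receptors Cd163 and Mrc1 were higher in muscle, at -3.13 ± 0.18 and -2.30 ± 0.13, and the antigen presentation genes Cd74 and H2-Eb1 were higher in kidney, at 1.26 ± 0.11 and 1.04 ± 0.12. Nerve and Schwann cell genes were higher in muscle in 6 of 8 (75.0%), beside 35.7% of all genes. However, 4 of the 8 were at or under background in both tissues. Mbp, myelin basic protein, differed by -4.34 ± 0.17, though its probe sets lay on both sides of 0, and Pmp22 by -3.13 ± 0.16. The mean level of the fibroblast list ran from 9.61 to 9.81 over the muscle arrays and from 6.97 to 7.15 over the kidney arrays, and that of the macrophage list from 6.84 to 6.98 and from 6.27 to 6.57.

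Adipose genes differed between the animals' kidneys. Ucp1, the uncoupling protein that defines brown fat, read 8.59, 4.55 and 6.25 in the kidneys of animals 1, 2 and 3 and 4.49, 4.67 and 4.49 in their muscles, so only the kidneys of animals 1 and 3 stood above background. Cidea, another brown fat gene and one chosen after its values were seen, followed the same order at 9.24, 4.63 and 7.08 in kidney, as did Adipoq (adiponectin) at 9.90, 6.58 and 8.92 and Thrsp at 9.94, 6.66 and 7.97. Over the 12 adipocyte genes the median level was 8.57, 6.68 and 7.84 in the kidneys and 8.71, 8.92 and 8.99 in the muscles. Of these genes 7 were higher in muscle (58.3%) and 3 in kidney (25.0%), beside 35.7% and 29% of all genes. Without animal 2 the count higher in muscle fell to 4. Adipoq (-1.76 ± 0.54) and Thrsp (-1.78 ± 0.58) were called, and both lost the call without animal 2, at -0.73 and -0.81. Thrsp lost it without animal 3 as well, at -1.65 (adjusted p = 0.0652, limma). Ucp1 was called at 1.91 ± 0.59, with 0.82 without animal 1 and 2.93 without animal 2, and missed the threshold with no block on animals (adjusted p = 0.0526, limma). For Ucp1, Adipoq and Thrsp the moderated SE is smaller than the 3 pairs alone would give.

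Of the 12 adipocyte genes, 9 had their kidney values in this order (animal 1, then 3, then 2) and 3 did not. Those 3 were Scd1, a fatty acid desaturase, at 11.73, 11.38 and 12.25, Pck1 at 12.12, 12.74 and 12.34, and Lep (leptin), at background in kidney. The order was read from members of this same list, and its share over all genes was not counted. The count of 9 is therefore only a description. Outside that list, the order was also seen in Cox8b and Car3 of the isoform pairs, named after their values were seen. Cox8b, which brown fat also makes, read 8.68, 5.09 and 6.87 in the kidneys and 13.21, 13.48 and 13.06 in the muscles, a difference of -6.37 ± 0.54 that was -7.29 without animal 1 and -5.36 without animal 2. Car3, a carbonic anhydrase of slow fibres and fat, read 12.23, 9.95 and 11.62 in the kidneys and 13.86, 13.82 and 13.91 in the muscles (-2.60 ± 0.33), and Fabp4, an adipocyte list gene that endothelium also makes, 11.83, 10.03 and 10.99 in the kidneys. Their muscle and kidney arrays did not overlap. The part of adipose tissue in these kidney values was not tested. Cox7a1 had the same order over a much narrower range, at 8.83, 8.51 and 8.67 in the kidneys.

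Clock genes differed between animals in both tissues. Per2, a repressor of the clock, read 5.96, 8.17 and 6.97 in the kidneys of animals 1 to 3 and 3.99, 6.78 and 5.19 in their muscles, so animal 2 was highest and animal 1 lowest in each tissue. Arntl, the activator, read 6.72, 5.27 and 5.49 in kidney and 8.07, 6.42 and 7.37 in muscle, with animal 1 highest in each tissue. Tissue arrays of both genes overlapped, yet the differences within animals were called, at 1.72 ± 0.14 for Per2 and -1.46 ± 0.15 for Arntl. Per3 (0.61 ± 0.13) was called in the paired fit and missed the threshold with no block on animals (adjusted p = 0.0666, limma), and the mean of its 4 probe sets was -0.02. Of 16 clock genes, 6 were higher in muscle (37.5%) and 3 in kidney (18.8%), beside 35.7% and 29% of all genes, with Hlf (2.48 ± 0.13) and Cry1 (-2.20 ± 0.45) the largest in each direction. The labels give no hour of sampling, and its part was not tested.

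**Figure D5:**
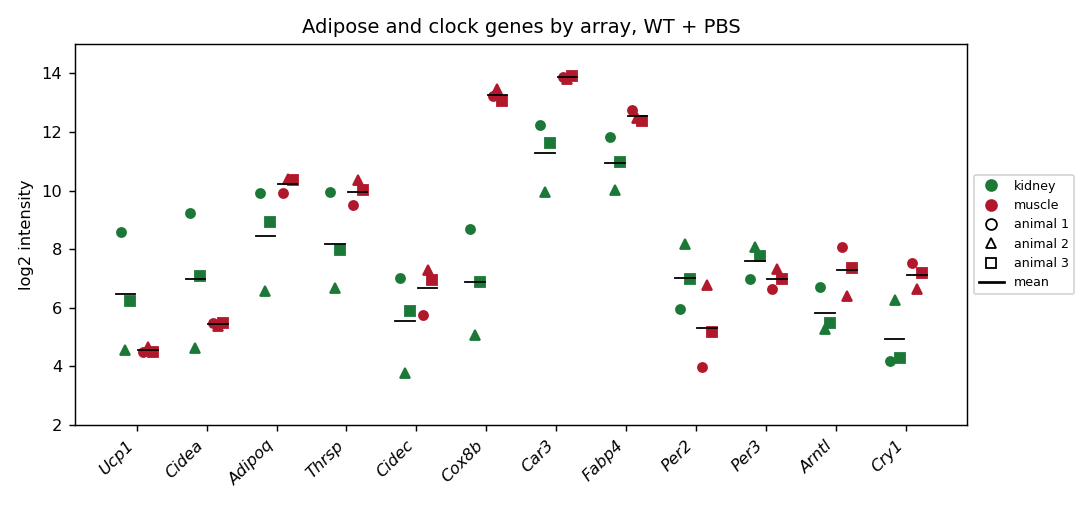
Log2 intensity of adipose genes (left) and clock genes (right) in each kidney and muscle array of the 3 WT + PBS animals, with symbols for the animals and a line at each mean. Kidney values of the adipose genes are highest in animal 1 and lowest in animal 2 (Ucp1 8.59 and 4.55), and for Per2 animal 2 is highest in both tissues.

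Genes often used as references were not free of tissue differences. Of 22 housekeeping genes, 13 were called (59.1%), beside 64.7% of all genes and 73.7% of those above background in at least 1 tissue. All 22 were above background in both tissues. Of them 7 were higher in kidney (31.8%) and 6 in muscle (27.3%), beside 29% and 35.7% of all genes, with a median of 0.02. Ywhaz differed by 1.95 ± 0.12, Gusb by 1.21 ± 0.17 and Hprt by 1.06 ± 0.12, while Tfrc, the transferrin receptor, differed by -1.31 ± 0.12 and Gapdh, a glycolytic enzyme, by -0.58 ± 0.11. Actb differed by -0.04 and was not called. Of 16 cytosolic ribosomal protein genes, 4 were higher in muscle (25.0%) and 1 in kidney (6.2%), beside 35.7% and 29% of all genes (median -0.09). The extreme was Rpl3l, the muscle form of Rpl3, at 12.25, 12.31 and 12.40 in muscle and 5.29, 5.51 and 5.36 in kidney (-6.94 ± 0.12). Of the 4215 genes whose interval lay within 0.5 of equality, 1983 were above background in both tissues. The narrowest intervals with signal in both were those of Llgl1 (-0.08 ± 0.11), a polarity protein, Mrfap1 (-0.05 ± 0.11), Wdr45b (0.09 ± 0.11), of autophagy, Irak1 (0.16 ± 0.11), a kinase of innate immunity, Polrmt (0.25 ± 0.11), the mitochondrial RNA polymerase, and Rgp1 (0.00 ± 0.11). The other 4 of the narrowest 10 (Larp6, Serpini2, Ubd and 3632454L22Rik) were at or under background in both tissues. Not all genes with signal stayed uncalled under the alternatives. Llgl1 was called at -0.30 after quantile normalization (adjusted p = 0.0409, limma). Irak1 was called at 0.29 with the mean of all probe sets (0.0304) and at 0.35 with the most variable (0.0295). Polrmt was called at 0.25 with no block on animals (0.0404). Mrfap1, Wdr45b and Rgp1 were called under none.

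Most of the tissue difference was seen again in other wild-type animals. In the 4 wild-type mice given the trap, 10798 genes (60.7%) were called. Of the 11498 genes called under PBS, 9270 (80.6%) were called there with the same sign and 41 with the opposite sign. Of the 4584 at least 2-fold apart, 4489 (97.9%) were called with the same sign, and of the 651 at least 16-fold apart, 650. A test of the difference between these groups (the interaction of tissue and trap) called 29 genes (0.163%). This count was unstable, at 8, 7 and 9 genes without WT + PBS animal 1, 2 or 3, at 74, 30, 82 and 16 without each trap-treated animal in turn, at 84 with no block on animals and at 137 with a random block. None of the 24 genes with the largest differences was among them. The largest was Mss51, a mitochondrial gene of fast muscle that was not in any list, whose tissue difference was -5.50 under PBS and -0.64 with the trap. In its PBS muscles it read 11.34, 11.15 and 9.54. Pvalb went from -5.25 to -6.90 and Aqp2 from 2.88 to 4.28.

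The tissue difference moved much more widely in the mutants, which share the WT + PBS arrays with that comparison. The interaction of tissue and genotype under PBS called 6338 genes (35.6%), 8 of the 24 largest among them. The median of the proximal tubule genes was 6.80 in wild type and 3.81 in mutants, with 39 of 45 genes called lower, and that of the amino acid catabolism genes was 2.24 and 0.26, with 36 of 40 lower. Miox differed by 9.00 in wild type and 5.62 in mutants, and Ugt2b38 by 9.65 and 5.23. The fibroblast, tendon and pericyte genes went from a median of -2.61 to 1.09, with 24 of 26 called, so that the list stood on the kidney side in mutants. Macrophage and leukocyte genes went from -0.33 to 2.53, with 18 of 23 called. For the fast-fibre genes the medians were -9.37 and -9.69, with 5 of 15 called, and Myh4 differed by -11.05 and -11.10.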

How the data were processed

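Whole kidney and muscle RNA, extracted with QIAZOL, was measured on Affymetrix arrays of the mouse genome, as the labels state. The authors deposited log2 intensities that they had normalized, with the log base read here from the values. How they normalized them is not given in the sources used. No further scaling or filter was applied. Of 35088 probe sets, 31563 carried 1 gene symbol, and each of the 17782 genes was read from the probe set brightest on average on the 6 arrays. limma 3.58.1 in R 4.3.3 fitted the tissues with the animal as a block, since kidney and muscle came from the same animal. Deviations of the tissues of an animal correlated at -0.002, 0.047 and 0.067. The script was tested on simulated data. Named genes were the 12 largest called in each direction without overlap, up to 4 called members of each list in each direction, the isoform pairs, fixed activin and wasting genes, and the 10 narrowest intervals. A few list members outside this rule are named for context. The members and lists were chosen with earlier results of these data known. Animals are separate, but 3 pairs limit the precision, and no depth exists for arrays.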

Additional observations from a re-analysis of the deposited data

Results flagged for a closer look

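The tissue difference of 29 genes differed between wild-type mice given the trap and those given PBS, by a test of the interaction in limma. The count ran from 7 to 82 when 1 animal was left out and was 84 with no replicate block. The interaction was 4.85 for Mss51 (adjusted p = 0.00163), -3.12 for Ces1g, a carboxylesterase (adjusted p = 0.014), and -2.44 for Dmp1, a matrix protein of bone (adjusted p = 0.0303), the 3 largest by size. Among the genes named by the rule it was -1.65 for Pvalb (adjusted p = 0.00623) and 1.40 for Aqp2 (adjusted p = 0.0363). The tissue difference of 6338 genes differed between mutants and wild type under PBS by the same kind of test. Both comparisons share the WT + PBS arrays.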

How the results depend on the processing

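Among 287 named genes, 271 of them called, 3 called genes changed sign under an alternative. These were Tpm3 (-1.89 with the mean of all probe sets, -7.25 with the most variable), Atp2a2 (-0.07) and Per3 (-0.02), both with the mean of all probe sets. Genes not called that changed sign were Atp2a3 (-0.05 with the mean of all probe sets, -0.01 after quantile normalization), Irak1 (-0.01), Rgp1 (-0.20) and Wdr45b (-0.06) after quantile normalization, and Cox7a2 (-0.03), Rgp1 (-0.11) and Wdr45b (-0.03) after median centring. With only genes above the median level, 6888 of 8891 genes were called (3085 higher in muscle), 1593 lay within 0.5 of equality and 6846 were called in WT + sActRIIB-Fc. The test against a 2-fold difference called 3221 (1974 higher in kidney, 1247 higher in muscle). No interval lay within 0.25 (0 genes) in limma's paired fit, nor with the most variable probe set, median centring or without any 1 animal, but 267 did with all 30 arrays, 187 with a random block, 162 with the mean of all probe sets, 145 with no block, 110 with a trended prior, 36 with array weights, 19 among genes above the median level and 1 after quantile normalization. Leaving out an animal gave 9977 to 10299 called genes and 2554 to 3748 within 0.5 of equality. With no replicate block 11532 genes were called, and the counts called, called in each direction, at least 2-fold apart and within 0.5 of equality stayed within 1.5 times under the settings not named here. The 29 genes with a trap interaction became 49 with the mean of all probe sets, 53 with the most variable, 84 with no replicate block, 137 with a random replicate block, 93 with array weights, 51 with a trended prior, and 7 to 82 without 1 animal. Of the 40 lists, the larger count moved beyond 1.5 times in 32 of the list and setting combinations.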
